A study of Mus musculus with 15 samples.

Results

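The 5 genes described here, *Hsd3b2*, *Hsd3b3*, *Hsd3b4*, *Hsd3b5* and *Hsd3b7*, encode hydroxysteroid dehydrogenases of the Hsd3b family. They were chosen by their symbols among the 55573 genes of a liver RNA-seq count table. Livers of mice aged 8 weeks were compared in 4 groups: 3 wild-type (WT) females, 5 ESR1KO females, 3 WT males and 4 ESR1KO males, with 1 library per mouse. All mice carried the strain label B6N(Cg)-Esr1tm4.2Ksk/J. The groups differed in sex and in being labelled wild type or homozygous for the *Esr1* knockout, and the labels give no treatment. The knockout allele lacks an exon of *Esr1*, the gene of estrogen receptor alpha, in every tissue. According to the study's methods, ESR1KO mice were born to heterozygous parents. They are infertile, and testosterone is raised in both sexes, so that loss of the receptor in liver and the changed hormones of the whole animal cannot be told apart in these livers. Total counts ranged from 27799061 to 78624766 per mouse.

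Hsd3b enzymes act on the hydroxyl or keto group at a fixed position of the steroid ring. Most members oxidize this hydroxyl group and shift a double bond, which is a required step on the way to progesterone, androgens, corticosteroids and estrogens in gonad and adrenal gland. Mouse HSD3B5 instead works mainly as a reductase of ketosteroids and is known as an enzyme of the adult male liver, whereas HSD3B7 acts on hydroxylated cholesterol in bile acid synthesis. Sex differences of liver RNA in mice are widely set by the pattern of growth hormone release, which differs between the sexes and acts through STAT5, BCL6, HNF6 and CUX2.

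Of the 5 genes, 4 had counts and passed the filter on low counts. *Hsd3b4* had a count of 0 in all 15 mice. *Hsd3b5* (ENSMUSG00000038092) was the one member with a large difference between the sexes: its RNA was 10.9-fold lower in WT females than in WT males, rose in ESR1KO females and fell in ESR1KO males, and the ESR1KO females and males overlapped. *Hsd3b2* (ENSMUSG00000063730) was 1.66-fold lower in WT females than in WT males. *Hsd3b3* (ENSMUSG00000062410) and *Hsd3b7* (ENSMUSG00000042289) passed the test in no comparison. Values below are CPM, the share of a library's counts on the usual scale of this unit, scaled by the trimmed mean of M values (TMM), and differences are log2 fold changes with standard errors (SE) and adjusted p from edgeR's quasi-likelihood F test over 17655 genes, called under 0.05.

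**Figure D1:**
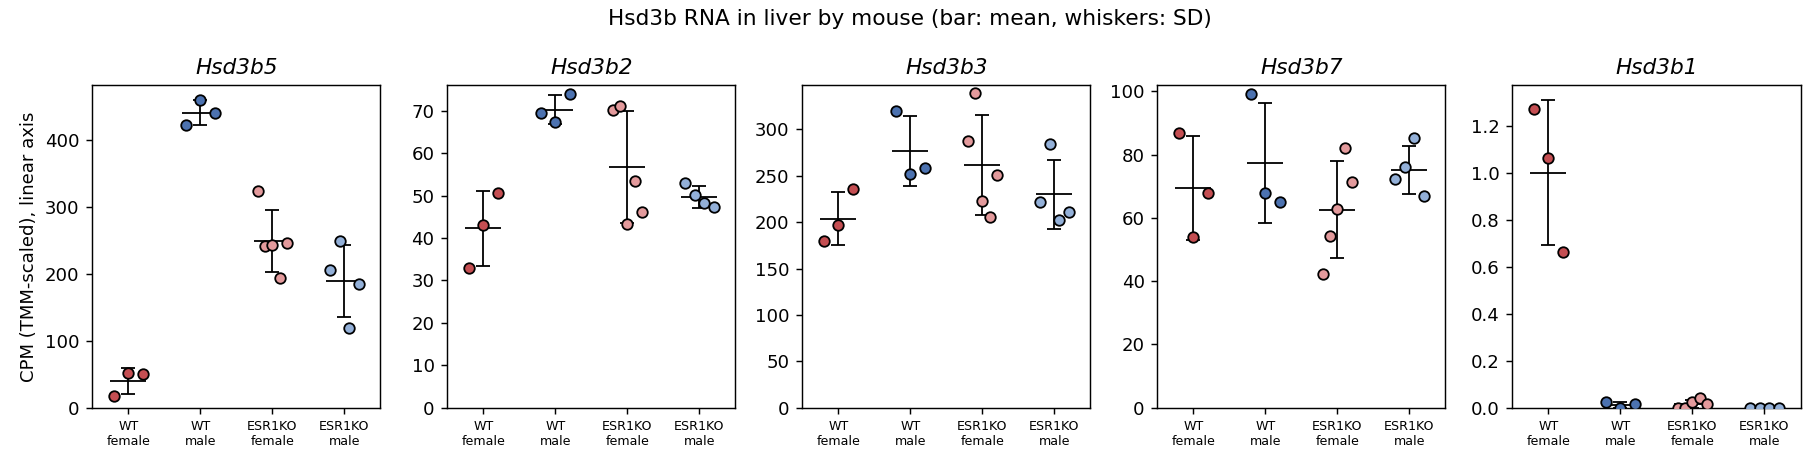
Each point is the CPM of 1 mouse on a linear axis, for the 4 detected members and for *Hsd3b1*; horizontal bars are group means and whiskers are SD (n = 3, 3, 5 and 4 mice from left to right). *Hsd3b5* lies between 18.2 and 52.0 in WT females, between 421 and 460 in WT males and in between in both ESR1KO groups, while *Hsd3b7* overlaps between all groups.

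*Hsd3b5* spans 98618634 to 98630252 on the minus strand of chromosome 3 in the GRCm38 annotation. Its level was 18.2, 52.0 and 50.9 CPM in the 3 WT females and 421, 460 and 440 CPM in the 3 WT males. No WT female came near any WT male. WT females over WT males gave a log2 fold change of -3.45 (SE 0.339, edgeR adjusted p = 3.79e-06). In this comparison 4.87% of all tested genes were called, and 2 of the 4 tested members, *Hsd3b5* and *Hsd3b2*, were called, both lower in females. The median of the 4 members was -0.59, beside 0.01 over all genes tested.

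In ESR1KO females *Hsd3b5* RNA was at 323, 241, 242, 194 and 246 CPM. Every ESR1KO female was thus above every WT female and below every WT male. ESR1KO over WT females gave a log2 fold change of 2.63 (SE 0.311, edgeR adjusted p = 5.60e-05), a 6.18-fold higher level. *Hsd3b5* was the 1 member called of 4 in this comparison, in which 5.71% of all tested genes were called. The members' median was 0.39, and that of all genes was near 0.

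In ESR1KO males *Hsd3b5* was at 205, 248, 118 and 185 CPM, and all 4 were below the 3 WT males. The log2 fold change of ESR1KO over WT males was -1.22 (SE 0.286, edgeR adjusted p = 0.0428), a 2.33-fold lower level. Again *Hsd3b5* was the 1 member called of 4, against 1.42% of all tested genes, with a members' median of -0.38. This call lies close to the threshold. The adjusted p passed 0.05 without WT male 1 (0.108), 2 (0.130) or 3 (0.140), without ESR1KO male 1 (0.0967), 3 (0.126) or 4 (0.103), and without ESR1KO female 2 (0.0570), 3 (0.0586) or 5 (0.0505), which enter only the shared estimate of spread. The fold change itself stayed between -1.38 and -1.05 whichever mouse was left out.

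The change in females and the change in males differed for *Hsd3b5*. Their difference, the interaction of sex and genotype, was 3.85 (SE 0.417, edgeR adjusted p = 3.35e-05), and *Hsd3b5* was the 1 member called of 4 against 1.94% of all tested genes. The median interaction of the 4 members was 0.78. WT females and WT males are controls in these comparisons and enter the sex difference as well, so the comparisons are not independent of each other.

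Within ESR1KO mice, *Hsd3b5* averaged 249 ± 46.4 CPM (SD, n = 5) in females and 189 ± 54.1 CPM (SD, n = 4) in males. The ranges overlapped, and females exceeded males by a log2 fold change of 0.40 (SE 0.254, edgeR adjusted p = 0.419). None of the 4 members was called by edgeR in this comparison, where 0.272% of all tested genes were. None had an unadjusted p under 0.05 either, and DESeq2 called 0 of the 4. The members' median was 0.19.

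From highest to lowest, *Hsd3b5* stood as follows: WT males, ESR1KO females, ESR1KO males, WT females. Neighbours in this order were not all distinct. ESR1KO females were below WT males in every mouse, but the log2 fold change of -0.82 (SE 0.270) had an edgeR adjusted p of 0.126, and 0 of the 4 members were called in that comparison against 2.61% of all tested genes. At an unadjusted p under 0.05 there was 1 such member, *Hsd3b5*, and DESeq2 also called it (adjusted p = 0.0475). Without WT female 1, which was the lowest mouse of all, edgeR's adjusted p was 0.0291. ESR1KO males were above WT females by 2.23 (SE 0.311, edgeR adjusted p = 0.000234), and *Hsd3b5* was the 1 member of 4 called there against 7.41% of all tested genes.

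**Figure D2:**
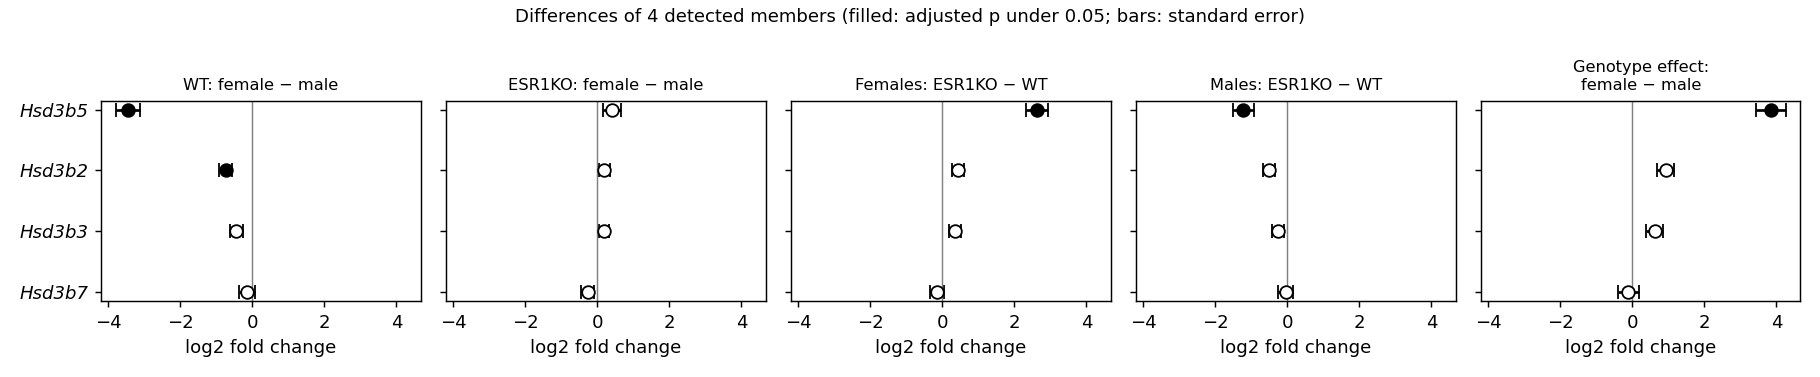
Log2 fold changes of the 4 detected members (x axis) in 5 comparisons, with bars for the standard error and filled points for an adjusted p under 0.05. *Hsd3b5* moves from -3.45 between the WT sexes to 2.63 in ESR1KO over WT females and -1.22 in ESR1KO over WT males, while *Hsd3b2* is filled only between the WT sexes and *Hsd3b3* and *Hsd3b7* are open throughout.

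*Hsd3b2* and *Hsd3b3* lie beside *Hsd3b5* on the same strand of chromosome 3, at 98709255 to 98724543 and at 98741523 to 98763127. Both encode members of the dehydrogenase type. *Hsd3b2* was at 33.0, 43.1 and 50.6 CPM in WT females and at 69.5, 67.2 and 74.0 CPM in WT males, with no overlap. The log2 fold change of WT females over WT males was -0.73 (SE 0.181, edgeR adjusted p = 0.0241). This call was lost without WT female 1 (adjusted p = 0.122) or 2 (0.0727) and without WT male 1 (0.0713), 2 (0.0551) or 3 (0.0720).

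In ESR1KO females *Hsd3b2* was at 70.0, 71.2, 43.3, 53.4 and 46.1 CPM. The first 2 of these mice were at the level of WT males and the other 3 were within or just above the range of WT females. ESR1KO over WT gave 0.43 (SE 0.164, edgeR adjusted p = 0.133). In ESR1KO males the values were 53.1, 50.03, 48.3 and 47.3 CPM, all below those of WT males, with a log2 fold change of -0.50 (SE 0.167, edgeR adjusted p = 0.190). Fitted on WT and ESR1KO males alone, this difference passed the threshold (adjusted p = 0.00767). The interaction for *Hsd3b2* was 0.93 (SE 0.234, edgeR adjusted p = 0.0530). That value fell under 0.05 without WT female 3 (0.0367) and without ESR1KO female 3 (0.0242) or 5 (0.0348), and with DESeq2 (0.00869). Within ESR1KO mice the difference between females and males was 0.19 (edgeR adjusted p = 0.501).

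*Hsd3b3* was at 179, 197 and 236 CPM in WT females and at 320, 252 and 258 CPM in WT males. The WT sexes did not overlap, yet the log2 fold change of -0.44 (SE 0.184) had an edgeR adjusted p of 0.218. ESR1KO females ranged from 206 to 340 CPM with a median of 251, and ESR1KO males from 203 to 285 CPM with a median of 216, so both overlapped WT mice of either sex. ESR1KO over WT was 0.36 (SE 0.166, edgeR adjusted p = 0.214) in females and -0.27 (SE 0.171, edgeR adjusted p = 0.606) in males, and the interaction was 0.63 (SE 0.238, edgeR adjusted p = 0.251). The 3 detected members of the chromosome 3 cluster thus had fold changes of the same sign in each of these comparisons, and the test was passed by *Hsd3b5* throughout and by *Hsd3b2* between the WT sexes.

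RefSeq promoter sequences on GRCm38.p6, the 250 bases before each start, were found for all 5 members. The pair below is shown because *Hsd3b5* and *Hsd3b3* were the members with the most similar promoters, while their log2 fold changes between the WT sexes were -3.45 and -0.44. Capitals mark the bases that are identical in the local alignment, 153 of 203 aligned columns or 75.4%, and both are given 5′ to 3′ on the minus strand, *Hsd3b5* at chr3:98645535-98645784 and *Hsd3b3* at chr3:98762411-98762660. The RefSeq start of *Hsd3b5* is 15282 bases from that of the other annotation used here, and the *Hsd3b3* sequence belongs to the second of its RefSeq entries.
Hsd3b5: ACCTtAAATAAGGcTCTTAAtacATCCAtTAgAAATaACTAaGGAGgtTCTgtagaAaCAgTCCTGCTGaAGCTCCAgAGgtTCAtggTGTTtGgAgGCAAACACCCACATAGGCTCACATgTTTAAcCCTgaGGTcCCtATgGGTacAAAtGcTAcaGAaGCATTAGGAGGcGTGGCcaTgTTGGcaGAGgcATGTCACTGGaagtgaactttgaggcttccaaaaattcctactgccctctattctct
Hsd3b3: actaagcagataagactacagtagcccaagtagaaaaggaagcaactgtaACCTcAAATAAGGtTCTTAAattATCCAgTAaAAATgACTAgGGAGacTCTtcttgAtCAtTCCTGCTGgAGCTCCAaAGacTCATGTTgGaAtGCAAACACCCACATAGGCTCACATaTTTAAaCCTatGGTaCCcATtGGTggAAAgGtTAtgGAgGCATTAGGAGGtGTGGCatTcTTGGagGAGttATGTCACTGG

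*Hsd3b7* lies apart from the cluster, on the plus strand of chromosome 7 at 127800604 to 127803802. WT females were at 86.8, 53.8 and 67.9 CPM and WT males at 99.2, 67.8 and 65.1 CPM. ESR1KO females ranged from 42.4 to 82.0 CPM with a median of 62.9, and ESR1KO males from 67.0 to 85.3 CPM with a median of 74.1. All groups overlapped. The log2 fold change was -0.15 (SE 0.221, edgeR adjusted p = 0.780) between the WT sexes, -0.15 (SE 0.197, edgeR adjusted p = 0.689) in ESR1KO over WT females, and -0.04 (SE 0.206, edgeR adjusted p = 0.970) in ESR1KO over WT males. The interaction was -0.11 (SE 0.286, edgeR adjusted p = 0.891).

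*Hsd3b4* (ENSMUSG00000095143), known from kidney as a reductase of ketosteroids, lies at 98499071 to 98510514 on the minus strand of chromosome 3. A count of 0 over a group allows up to 3 counts, which is 0.0208 CPM in WT males, 0.0207 in WT females, 0.0148 in ESR1KO males and 0.0129 in ESR1KO females, for counting error only. Every stretch of 100 bases in the annotated *Hsd3b4* transcripts also occurs in *Gm10681*, a coding gene of the same cluster. A read of *Hsd3b4* can therefore not be assigned to it alone. *Gm10681* had 4 counts over the 15 mice, and how the authors treated reads with several positions is not given in the sources used here. Of the other members, the share of such stretches found in another gene was 7.79% for *Hsd3b5*, 8.28% for *Hsd3b2* and 4.67% for *Hsd3b3*.

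For *Hsd3b7* this share was 72.04%, because the annotation places other genes over it. In all, 99.2% of its 2769 exon bases are also exonic in *Gm49388* on the same strand or in *9430064I24Rik* on the opposite strand. *Gm49388* had a count of 0 in all mice and *9430064I24Rik* 141 counts in all, beside 51392 for *Hsd3b7*. The strand setting of the authors' counting is not given in the sources used here, so reads of *Hsd3b7* and *9430064I24Rik* may not have been told apart. *Zfp697*, on the opposite strand, covers 2.68% of the exon bases of *Hsd3b2* and 4.39% of those of *Hsd3b3*, and it was called in no comparison.

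Levels of different genes can be compared only per length. Scaled to CPM per kb of exon, *Hsd3b5* averaged 284 ± 12.3 (SD, n = 3) in WT males, against 43.3 ± 5.91 for *Hsd3b3*, 27.9 ± 6.84 for *Hsd3b7* and 19.0 ± 0.932 for *Hsd3b2*. In WT females *Hsd3b3* ranked first by the mean at 31.9 ± 4.51, followed by *Hsd3b5* at 26.1 ± 12.4 and *Hsd3b7* at 25.1 ± 5.97. These 3 genes do not differ beyond their spread. The highest gene was *Hsd3b7* in WT female 1, *Hsd3b5* in WT female 2 and *Hsd3b3* in WT female 3. *Hsd3b2* was lowest at 11.4 ± 2.40 (SD, n = 3). *Hsd3b5* ranked first again in ESR1KO females at 161 ± 29.95 (SD, n = 5) and in ESR1KO males at 122 ± 34.9 (SD, n = 4). With the length of the longest transcript, *Hsd3b7* and *Hsd3b5* changed places in WT females. Of the exon bases of *Hsd3b7*, 62.0% are also exonic in *Gm49388* on the same strand. How reads lying in both genes were counted is not given in the sources used here. The level per kb of *Hsd3b7*, its rank, and the sums and shares below are uncertain to that extent.

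*Hsd3b5* thus set most of the summed level of the 4 genes in 3 of the 4 groups. Its share of the sum was 75.9% ± 3.26 in WT males and 26.8% ± 10.7 in WT females (SD, n = 3 each), 66.8% ± 4.34 in ESR1KO females (SD, n = 5) and 60.6% ± 6.94 in ESR1KO males (SD, n = 4). The sum was 375 ± 5.68 CPM per kb in WT males and 94.5 ± 13.97 in WT females (SD, n = 3 each), 240 ± 31.8 in ESR1KO females (SD, n = 5), and 152 to 246 with a mean of 199 in the 4 ESR1KO males. *Hsd3b3* gave 33.8% of the sum in WT females and 11.5% in WT males.

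**Figure D3:**
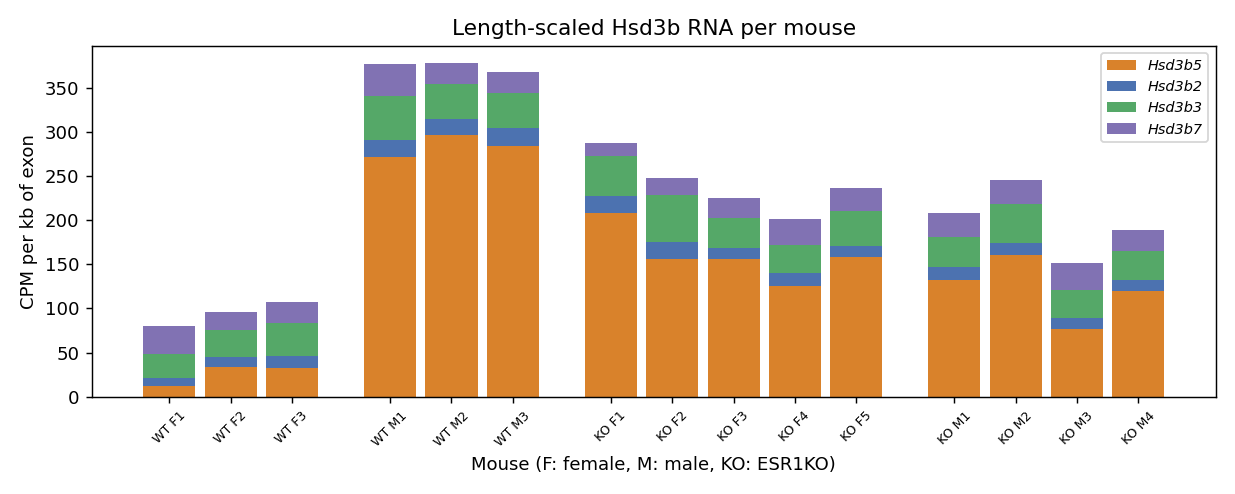
Stacked bars give the CPM per kb of exon of the 4 detected members in each of the 15 mice, from 0 on a linear axis. The *Hsd3b5* segment is the largest in every WT male and every ESR1KO mouse, and the summed level is between 80.0 and 108 in WT females and between 368 and 379 in WT males.

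Across the 15 mice, log2 CPM of *Hsd3b2* and *Hsd3b3* had a Pearson r of 0.785, *Hsd3b2* and *Hsd3b5* of 0.778, and *Hsd3b3* and *Hsd3b5* of 0.672. These are descriptions, since the mice fall into 4 groups and each value comes from 1 library. With group means removed, r was 0.663, 0.545 and 0.524 for the same pairs. *Hsd3b7* had a negative r with each of them, between -0.278 and -0.134 over all mice. Within groups its r was -0.645 with *Hsd3b5*, -0.576 with *Hsd3b2* and -0.286 with *Hsd3b3*.

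Among all tested genes outside the family whose log2 CPM averaged 1 or more, those most like *Hsd3b5* by Pearson r over the 15 mice were *Nudt7* (0.950), a peroxisomal hydrolase of coenzyme A, *Mup21* (0.948), a major urinary protein, and *Mindy3* (0.942), a deubiquitinase. *Mup21* averaged 299.7 CPM in WT males, 4.96 in WT females, 132 in ESR1KO males and 103 in ESR1KO females, which is the order of *Hsd3b5* except that the ESR1KO groups change places. For *Hsd3b2* the nearest genes were *Psme4* (0.912), *Gm20319* (0.885) and *Lsm6* (0.882), and for *Hsd3b3* they were *Cpsf2* (0.900), *Kpna1* (0.891) and *Dnajc3* (0.888). For *Hsd3b7* they were *Lonp2* (0.933), a protease of peroxisomes, *Gpn3* (0.928) and *Cpt2* (0.911), a mitochondrial enzyme of fatty acid oxidation. With group means removed, r was 0.921 to 0.941 for the last 3 and 0.637 to 0.703 for the genes most like *Hsd3b5*. All were picked by r over these same mice, which includes differences between groups. Such differences are large for *Hsd3b5* and small for *Hsd3b7*, so this contrast is no separate result.

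The cluster on chromosome 3, from 98445675 to 98859794, holds 20 annotated genes, of which 4 were tested and 8 had a count of 0 in all mice. Beside *Hsd3b5*, *Hsd3b2* and *Hsd3b3* the fourth was *Hsd3b1*, which is no member of the set described here. *Hsd3b1*, an enzyme of steroid synthesis in gonad and adrenal gland, is the gene of the cluster at the highest coordinates, at 98852194 to 98859794. Its counts were 74, 46 and 29 in the WT females, and they summed to 2 over the WT males, 0 over the ESR1KO males and 4 over the ESR1KO females. The 3 WT females averaged 0.999 ± 0.309 CPM (SD). By counts, it was 74.1-fold higher in WT females than in WT males (exact 95% interval 20.2 to 618, counting error only), 59.9-fold higher than in ESR1KO females (22.9 to 223), and at least 69.5-fold higher than in ESR1KO males at a limit of 3 counts over the group. The edgeR adjusted p was 2.03e-05 between the WT sexes and 7.05e-06 between ESR1KO and WT females. *Hsd3b1* passed the filter on low counts only through WT females, the group where it is high. These adjusted p depend on that selection and are no independent support. DESeq2 also called the difference between the WT sexes (adjusted p = 3.67e-06), but in ESR1KO over WT females its own filter on low counts left *Hsd3b1* without an adjusted p (DESeq2 unadjusted p = 3.06e-12). In sign this was opposite to *Hsd3b5* in both comparisons, at a level far below it. No stretch of 100 bases of *Hsd3b1* transcripts occurs in another gene. *Hsd3b6* had 1 count over all mice and *Gm4450* had 4.

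The next gene beyond *Hsd3b1* is *Hao2*, a peroxisomal oxidase of hydroxy acids, 14727 bases away. It was at 22.1, 34.6 and 26.4 CPM in WT females and averaged 0.0731 CPM in WT males, 0.542 in ESR1KO males and 1.01 in ESR1KO females. The log2 fold change of *Hao2* was 8.58 (SE 0.458, edgeR adjusted p = 2.31e-09) between the WT sexes, -4.79 (SE 0.270, edgeR adjusted p = 7.53e-09) in ESR1KO over WT females and 2.94 (SE 0.564, edgeR adjusted p = 0.0113) in ESR1KO over WT males. Its signs were thus opposite to those of *Hsd3b5* in all 3. Other tested genes near the cluster, *Zfp697*, *Phgdh*, *Wars2* and *Gm43024*, were called in no comparison.

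**Figure D4:**
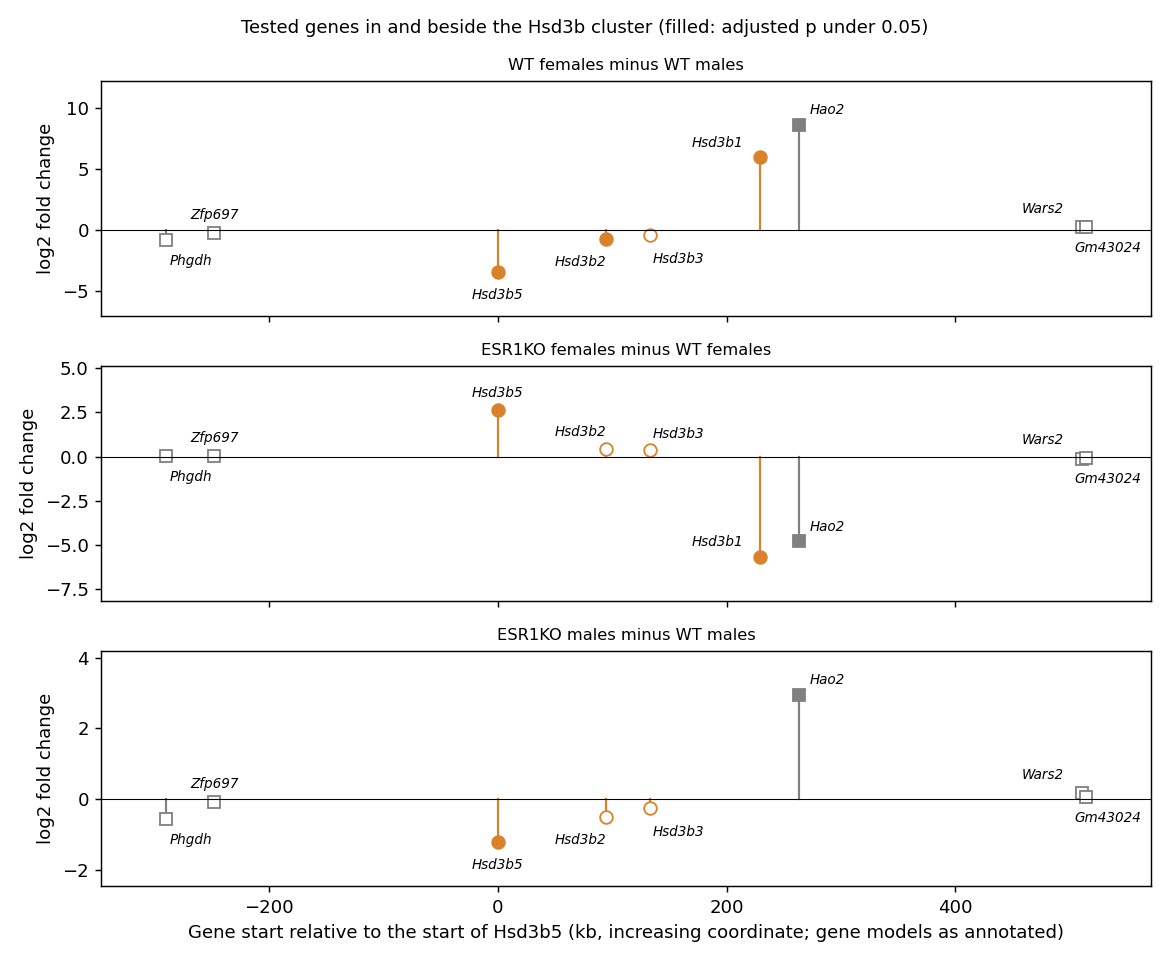
Log2 fold changes of the tested genes in the cluster (orange circles) and of tested genes near it (grey squares) against the distance of the gene's start from that of *Hsd3b5* in kb, with filled symbols for an adjusted p under 0.05. In the upper panels *Hsd3b5* lies on the other side of 0 from *Hsd3b1* and *Hao2*; the fitted fold change of *Hsd3b1* depends on the prior count, and in the lowest panel it is left out because both groups have fewer than 3 counts.

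Motifs were searched on both strands of the promoter windows of the members and of the neighbours *Hsd3b1*, *Hsd3b6* and *Hao2*. The 4 motifs were that of STAT5 and BCL6, TTC and GAA with 3 bases between, ATTGAT of HNF6 and CUX2, the palindromic estrogen receptor element and the palindromic androgen receptor element. None of the 4 was found in the windows of *Hsd3b5*, *Hsd3b2* and *Hsd3b3*, which says only that these letters are not there. Among 32851 promoter windows of the same length, 7.02% held the STAT5 and BCL6 motif, 6.72% the HNF6 and CUX2 motif, 0.387% the androgen receptor element and 0.0639% the estrogen receptor element. *Hsd3b4* held the HNF6 and CUX2 motif. The STAT5 and BCL6 motif was found in *Hsd3b7* at positions -21 to -13 before the start, and in *Hsd3b1* at -122 to -114. The androgen receptor element was found in *Hsd3b6*, at -233 to -221, a gene with 1 count over all mice, and *Hao2* held none of the 4. The windows of *Hsd3b1* and *Hsd3b7* are shown with the motif in capitals, since the genes differ in their values: *Hsd3b1* at chr3:98859795-98860044 on the minus strand was higher in WT females, and *Hsd3b7* at chr7:127800359-127800608 on the plus strand was called in no comparison. A match is a description of the sequence and was not measured as a bound site.
Hsd3b1: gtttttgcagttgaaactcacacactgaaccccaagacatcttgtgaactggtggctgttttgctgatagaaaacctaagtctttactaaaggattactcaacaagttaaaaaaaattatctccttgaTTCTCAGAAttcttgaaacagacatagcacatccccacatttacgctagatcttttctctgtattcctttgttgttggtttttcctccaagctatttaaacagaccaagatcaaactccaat
Hsd3b7: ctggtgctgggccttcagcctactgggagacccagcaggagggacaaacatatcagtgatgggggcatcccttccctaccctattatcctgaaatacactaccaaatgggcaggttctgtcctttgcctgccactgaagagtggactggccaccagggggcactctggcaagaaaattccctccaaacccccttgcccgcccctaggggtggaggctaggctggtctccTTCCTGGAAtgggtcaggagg

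The other genes of steroid and bile acid metabolism were described by lists. A list for steroid reduction and oxidation in liver held 22 tested genes. It takes in enzymes of the same families, and their action on steroids was not examined. Of the 22, 4 were higher and 2 lower in WT females than in WT males. Between the ESR1KO sexes 0 were called (7 at an unadjusted p under 0.05, and 3 by DESeq2). In ESR1KO over WT females 7 rose, among them *Hsd17b10*, *Hsd17b12* and *Hsd17b13*, and 1 fell. In ESR1KO over WT males 1 rose and 1 fell. *Akr1d1*, *Akr1c6* and *Akr1c14* are also in the bile acid list below. Over all tested genes, the shares called in these 4 comparisons were 4.87%, 0.272%, 5.71% and 1.42%. The list's median log2 fold change was 0.05 in females and 0.03 in males. *Srd5a1*, the steroid reductase that acts on testosterone, rose in females by 0.87 (SE 0.170, edgeR adjusted p = 0.00623) from 37.0 ± 1.34 CPM (SD, n = 3), and was lower in WT females than in WT males by a log2 fold change of -1.24 (SE 0.187, edgeR adjusted p = 0.000449). *Akr1c19*, an aldo-keto reductase, rose in females by 0.99 (SE 0.173, edgeR adjusted p = 0.00277). *Rdh16f2*, a retinol dehydrogenase of the short-chain family, fell in females from 210 ± 6.48 CPM (SD, n = 3) to 88.9 ± 10.1 CPM (SD, n = 5), a log2 fold change of -1.24 (SE 0.129, edgeR adjusted p = 1.25e-05). *Rdh16* of the same family rose in males by 1.55 (SE 0.190, edgeR adjusted p = 0.000441).

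Of 17 tested genes of bile acid synthesis, to which *Hsd3b7* contributes, 2 were higher and 3 lower in WT females than in WT males, 0 were called between the ESR1KO sexes (4 at an unadjusted p under 0.05, and 0 by DESeq2), 2 rose and 1 fell in ESR1KO over WT females, and 0 rose and 1 fell in ESR1KO over WT males. These counts stand beside the same shares of all tested genes, 4.87%, 0.272%, 5.71% and 1.42%. The medians were 0.01 in females and -0.04 in males. *Cyp7b1*, the hydroxylase that makes a substrate for HSD3B7, was at 38.0, 48.2 and 72.4 CPM in WT females and at 707, 746 and 713 CPM in WT males. It rose in ESR1KO females by 0.98 (SE 0.256, edgeR adjusted p = 0.0353) to 104 ± 32.0 CPM (SD, n = 5), with overlap, and fell in ESR1KO males by a log2 fold change of -2.74 (SE 0.264, edgeR adjusted p = 4.99e-05) to 108 ± 31.9 CPM (SD, n = 4). Its signs were those of *Hsd3b5*, with the larger change in males where *Hsd3b5* had the larger change in females. *Scp2*, a sterol carrier and peroxisomal thiolase, rose in females by 1.60 (SE 0.149, edgeR adjusted p = 4.47e-06), and *Cyp39a1*, an oxysterol hydroxylase, fell by a log2 fold change of -1.28 (SE 0.236, edgeR adjusted p = 0.00396).

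Of 7 genes of adrenal and gonadal steroid synthesis, 3 were tested, and 1 was higher and 1 lower in WT females than in WT males. No gene of this list was called between the ESR1KO sexes by edgeR, at an unadjusted p under 0.05 or by DESeq2 (which gave 1 of the 3 no adjusted p), and 1 fell in each sex in ESR1KO over WT. *Cyp17a1*, whose product works next to HSD3B enzymes in androgen synthesis, averaged 97.7 ± 18.6 CPM in the 3 WT females, 5.58 ± 1.46 in the 3 WT males, 5.40 ± 0.950 in the 4 ESR1KO males and 5.56 ± 3.57 in the 5 ESR1KO females (SD). The log2 fold change of *Cyp17a1* in ESR1KO over WT females was -4.15 (SE 0.388, edgeR adjusted p = 4.47e-06). *Cyp21a1* averaged 0.512 ± 0.161 CPM (SD, n = 3) in WT males and fell in ESR1KO males to 0.105 ± 0.0675 CPM (SD, n = 4; edgeR adjusted p = 0.0428). *Cyp21a1* passed the filter on low counts only through WT males, the group where it is high, so its calls depend on that selection. Of 3 tested genes among the rest of the Hsd3b family, *Hsd3b1* was the 1 called, and it entered the test only through WT females. *Nsdhl*, which acts in cholesterol synthesis, and *Sdr42e1* were called in no comparison. Over all tested genes, the shares called were 4.87% between the WT sexes and 0.272% between the ESR1KO sexes. They were 5.71% in ESR1KO over WT females, 1.42% in ESR1KO over WT males and 7.41% in ESR1KO males over WT females.

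**Figure D5:**
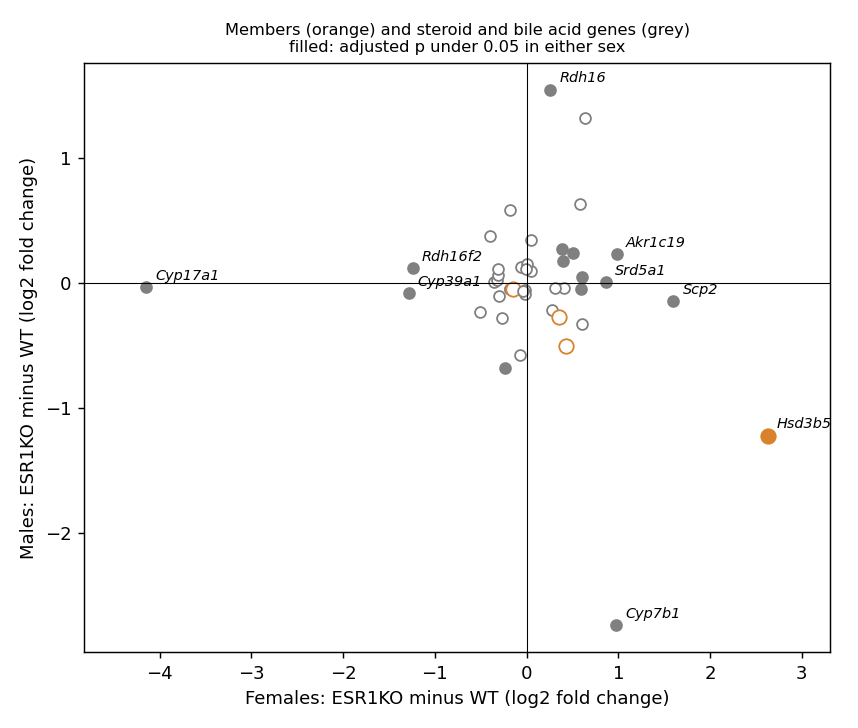
Each point is 1 gene, with the log2 fold change of ESR1KO over WT females on the x axis and of ESR1KO over WT males on the y axis; members are orange, genes of the lists are grey, and filled points have an adjusted p under 0.05 in either sex. *Hsd3b5* lies at 2.63 and -1.22, *Cyp7b1* at 0.98 and -2.74, and *Cyp17a1* at -4.15 with no called change in males; *Hsd3b1* and *Cyp21a1* are left out because a group has at most 3 counts.

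The targeted gene was checked in every library. *Esr1* ranged from 25.0 to 52.0 CPM in WT males, from 74.7 to 88.2 in WT females, from 8.22 to 16.1 in ESR1KO males and from 9.67 to 19.7 in ESR1KO females, so all ESR1KO mice were below all WT mice of either sex. All 8 hepatocyte markers were present. In ESR1KO over WT, edgeR called 0 of them in either sex. At an unadjusted p under 0.05 there were 2 in each sex, and DESeq2 called 1 in each. Over all tested genes, edgeR called 5.71% in ESR1KO over WT females and 1.42% in ESR1KO over WT males. Summed hepatocyte markers were 103792 to 113307 CPM in ESR1KO males, above the 93865 to 95832 CPM of WT males without overlap. They were 97322 to 124000 CPM in ESR1KO females and 116049 to 122951 CPM in WT females, with overlap. Of 6 markers each of Kupffer, endothelial, stellate and lymphoid cells edgeR also called 0 in ESR1KO over WT of either sex, with at most 2 of a list at an unadjusted p under 0.05, and DESeq2 called 1 endothelial marker in females. Of 6 cholangiocyte markers, 1 rose in ESR1KO females (*Spp1*) and 2 in ESR1KO males (*Krt19* and *Epcam*), with summed levels of 34.1 to 55.7 CPM in WT males, 32.5 to 33.1 in WT females, 41.5 to 59.6 in ESR1KO males and 44.0 to 51.5 in ESR1KO females. Of 10 pericentral markers 2 fell in ESR1KO females (*Lgr5* and *Cyp1a2*), with summed levels of 9351 to 11462 CPM in WT females and 6375 to 10058 CPM in ESR1KO females. Of 10 periportal markers 1 rose (*Etnppl*) and 1 fell (*Aldh1b1*) in ESR1KO females. Their sum was 7071 to 10259 CPM in WT females and 6054 to 7889 CPM in ESR1KO females. At an unadjusted p under 0.05 there were 5 pericentral and 6 periportal markers in females, and DESeq2 called 3 of each list. In males edgeR and DESeq2 called 0 of either list, with 3 of each at an unadjusted p under 0.05.

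Marker genes also differed in the comparisons between the sexes. Over all tested genes, edgeR called 4.87% between the WT sexes and 0.272% between the ESR1KO sexes. It called 7.41% in ESR1KO males against WT females and 1.94% for the interaction. *Alb*, the albumin gene, was higher in WT females than in WT males (log2 fold change 0.66, adjusted p = 0.0382 by edgeR). It was the 1 hepatocyte marker of 8 that edgeR called there, with 5 at an unadjusted p under 0.05 and 4 called by DESeq2. Summed hepatocyte markers of WT females, 116049 to 122951 CPM, did not overlap the 93865 to 95832 CPM of WT males. Between the WT sexes edgeR called 2 of 6 cholangiocyte markers (*Epcam* higher and *Sox9* lower in females), 2 of 10 periportal markers (*Aldh1b1* higher and *Cyp2f2* lower), *Lrp2* of the kidney list and *Cyp21a1* of the adrenal list (both lower), and no marker of the Kupffer, endothelial, stellate, lymphoid and pericentral lists, with at most 3 of a list at an unadjusted p under 0.05 and 0 by DESeq2. *Cyp21a1* passed the filter on low counts only through WT males, the group where it is high. The interaction was called for *Epcam* and *Aldh1b1*, both below 0. In ESR1KO males against WT females, edgeR called 3 of 6 Kupffer markers lower (*Clec4f*, *Cd5l* and *Timd4*, with log2 fold changes of -0.45, -0.46 and -0.52), and 5 single markers of other lists (*Ttr*, *Col3a1*, *Spp1* and *Etnppl* higher, *Slc1a2* lower). Summed Kupffer markers were 242 to 314 CPM in ESR1KO males, 323 to 391 in WT females, 305 to 322 in WT males and 315 to 405 in ESR1KO females. Between ESR1KO females and males edgeR called 1 of 6 Kupffer markers (*Vsig4*, higher in females), and DESeq2 called 5 of 6. The part of these differences in the change of *Hsd3b5* was not tested. In whole liver, fewer cells of a type and less RNA per cell cannot be told apart.

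Kidney and adrenal gland carry *Hsd3b* RNA of their own and were looked for by their markers. *Kap* and *Aqp2* of the kidney list had a count of 0 in all groups, and so did *Cyp11b2* and *Mc2r* of adrenal cortex. *Slc12a1* had counts in ESR1KO females only, and *Slc34a1* and *Cyp11b1* in ESR1KO males only. The other markers of both lists had counts in every group. The summed level of 6 adrenal markers was 1.24 to 1.65 CPM in WT females and 1.86 to 2.07 CPM in WT males, without overlap. It was 1.38 to 1.82 CPM in ESR1KO females and 1.41 to 2.28 CPM in ESR1KO males. The summed level of 6 kidney markers was 0.412 to 2.05 CPM in WT females and 3.12 to 5.48 CPM in WT males, without overlap. It was 0.921 to 2.42 CPM in ESR1KO females and 2.46 to 3.47 CPM in ESR1KO males.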

How the data were processed

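Liver RNA of 15 mice was sequenced after depletion of ribosomal RNA, as paired-end reads on a NovaSeq, with a second run for samples with few reads. The authors trimmed reads with Trimmomatic 0.36, used STAR to align them to GRCm38, and counted reads per gene in HTSeq (0.6.0 in the submitters' processing notes). The deposited values are whole counts without normalization. Whether strand was used, how reads with several positions were treated, and which annotation release was taken are not given in the sources used here. Groups were taken from the sample labels. No label ties mice to a litter, and whether some were littermates is not given in the sources used here. The tests treat the mice as independent, and p-values weigh each difference against the spread between these mice.

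The analysis used edgeR 4.0.16 in R 4.3.3. filterByExpr with the 4 groups left 17655 genes, among them 4 members. Libraries were scaled by TMM (factors 0.9568 to 1.0354), group means were fitted to all 15 libraries, and p of the F test was adjusted by Benjamini-Hochberg over all genes tested. The fit was tested on simulated data. log2 CPM adds a prior count of 2. Gene models are GENCODE M21 and promoters are from RefSeq. Named are all members, all Hsd3b genes, up to 4 genes a list with the largest called change by genotype, the nearest 3 tested genes on each side of the cluster (1 of them is not reported here), and the 3 genes most like each member. Members, lists, motifs and tests were chosen with earlier results of these data known. Alternatives were other scalings and filters, DESeq2 1.42.0, a fit on the compared groups alone, a replicate block, a minimum log2 fold change of 1.5, unadjusted p, another gene length, and leaving out each mouse.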

Additional observations from a re-analysis of the deposited data

Results flagged for a closer look

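The change of *Hsd3b5* with genotype differed between the sexes. It rose in ESR1KO females and fell in ESR1KO males, and the difference of the log2 fold changes was 3.85 (SE 0.417, edgeR adjusted p = 3.35e-05). The direction was seen in 5 of 5 ESR1KO females, each above the 3 WT females, and in 4 of 4 ESR1KO males, each below the 3 WT males. Without any 1 mouse the difference lay between 3.497 and 4.07. Of 8 groups of 4 or 5 mice examined for a member's level, none held a mouse far from the others by Dixon's test, which chance alone would flag in about 1 of 20 groups. With so few mice the test can miss such a mouse. The WT groups of 3 mice were not examined, so it says nothing of WT female 1, at 18.2 CPM of *Hsd3b5* beside 52.0 and 50.9 CPM.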

How the results depend on the processing

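The *Hsd3b5* differences between the WT sexes (-3.67 to -3.10), between ESR1KO and WT females (2.28 to 2.85), between ESR1KO males and WT females (1.88 to 2.45) and their interaction (3.497 to 4.07) passed the threshold under every alternative run; the ranges are those over mice left out. The count of members called was less stable. For the interaction it was 2 with total counts only, without the filter and with DESeq2, and 3 at unadjusted p, against 1. For ESR1KO females over WT males it was 1 without the filter, in the compared groups alone, with DESeq2 and at unadjusted p, against 0. For ESR1KO over WT males it was 0 with the replicate block or the fold minimum and 2 in the compared groups alone or at unadjusted p, against 1. For the WT sexes it was 1 with the fold minimum, and for ESR1KO over WT females 3 at unadjusted p. With 1 mouse left out the counts were 1 to 2 (WT sexes), 0 to 1 (ESR1KO over WT males), 0 to 1 (ESR1KO females over WT males) and 1 to 2 (interaction). Of 668 member values over the alternatives, 623 kept side and direction.

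Same-numbered mice of different groups share only a number: over 19 such pairs the correlation of their deviations lay between -0.267 and 0.186, 3 were over 0.1, and 1 of 15 mice correlated best with its own number. The replicate block gave *Hsd3b5* in ESR1KO over WT males -1.17 (SE 0.323, edgeR adjusted p = 0.140), beside 0.0428 without it, and moved the called genes of that comparison from 250 to 165. It changed no other call of a member.

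Reversals were limited to 10 values that were called with neither setting, each with 1 mouse left out. *Hsd3b7* ranged from -0.346 to 0.0649 between the WT sexes (above 0 without WT female 2 or WT male 1), from -0.304 to 0.0417 in ESR1KO over WT females (above 0 without WT female 1), from -0.152 to 0.177 in ESR1KO over WT males (above 0 without WT male 1 or ESR1KO male 4), from -0.0420 to 0.304 in ESR1KO males over WT females (below 0 without WT female 2), and from -0.328 to 0.0836 for the interaction (above 0 without WT female 1, WT male 3 or ESR1KO female 1). *Hsd3b3* in ESR1KO females over WT males ranged from -0.193 to 0.0352 (above 0 without WT male 1). The cause of these changes was not tested.

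Counts over all genes moved by more than 1.5 times as follows. DESeq2 called 431 between the ESR1KO sexes, 1533 and 487 in ESR1KO over WT females and males, 850 in ESR1KO females over WT males and 583 for the interaction, against 48, 1008, 250, 461 and 343. Without the filter 313 and 411 were called between the ESR1KO sexes and in ESR1KO over WT males. In the compared groups alone the counts were 26 (ESR1KO sexes), 457 and 422 (ESR1KO over WT females and males), 242 (ESR1KO females over WT males) and 2613 (ESR1KO males over WT females, against 1309). With the fold minimum between 25 and 319 genes were called, and at unadjusted p between 2099 and 3973. With 1 mouse left out, the range was 541 to 1096 for the WT sexes, 26 to 109 for the ESR1KO sexes, 413 to 1538 and 100 to 331 for ESR1KO over WT females and males, 215 to 722 and 613 to 1805 for the cross comparisons, and 242 to 393 for the interaction.

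Depth limits *Hsd3b6*, and *Hsd3b1* outside WT females, the sequence shared with *Gm10681* limits *Hsd3b4*, and 3 WT mice of each sex limit the smaller differences of *Hsd3b2* and *Hsd3b3*.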
